A study of Homo sapiens with 16 samples.

Results

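The gene for neurotensin, NTS, and the genes for its known receptors, NTSR1 and SORT1, were followed across 16 RNA-seq libraries of human hepatocellular carcinoma cells. They are 3 of the 26258 genes of the deposited table of CPM (read counts scaled to one common library total) and were found in it by Entrez gene ID, 4922 for NTS, 4923 for NTSR1 and 6272 for SORT1. NTS was chosen by its measured CPM in resistant against parental cells. There its mean log2 change over the 4 resistant comparisons was the lowest among genes called lower in all Sorafenib-resistant groups. Its values in resistant against parental cells are therefore given as a description with no test. NTSR1 and SORT1 were picked as receptors of the peptide.

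The study raised Sorafenib-resistant cells from 2 hepatocellular carcinoma lines, Huh7 and Hep3B, with either stepwise increasing concentrations of the multi-kinase inhibitor Sorafenib (Huh7-IR and Hep3B-IR) or a constant high concentration (Huh7-CR and Hep3B-CR). The comparisons address which genes differ between resistant cells and the parental cells they came from. The labels give 8 groups of 2 libraries each, namely parental, DMSO, IR and CR cells of both lines. Parental and DMSO cells are labelled untreated, IR and CR cells are labelled with 7 µM Sorafenib, and how long the DMSO cells were kept or with how much solvent was not given in the sources used here. Whether each resistant line is a single clone or a pool was not stated, and nothing says that the 2 libraries of a group came from separate cultures, so that the p-values measure only the spread between these libraries, which may be technical.

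Neurotensin is a short peptide cut, together with neuromedin N, from a single precursor that is made mainly by endocrine N cells of the small intestine and by neurons. It acts on cells through the G-protein coupled receptors NTSR1 and NTSR2, which couple to Gq, phospholipase C and protein kinase C. SORT1 encodes sortilin, a VPS10-domain receptor that binds neurotensin but mostly moves cargo between the Golgi, endosomes and the cell surface, in hepatocytes including apolipoprotein B. SORL1 encodes a larger receptor of the same family that can also bind neurotensin.

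In GRCh37 coordinates, NTS lies on chromosome 12 from 86268073 to 86276770 on the plus strand, NTSR1 on chromosome 20 from 61340188 to 61394123 on the plus strand, and SORT1 on chromosome 1 from 109852190 to 109940540 on the minus strand. All 3 are protein-coding, with 1239, 4133 and 6990 exon bases in their canonical transcripts. Because the counts are sums over the exons of a gene, they do not separate its exons or isoforms.

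The promoter of NTS is shown because NTS was chosen for its fall in resistant cells. The counts do not show which start its RNA came from. The 250 bases before the RefSeq start, chr12:86267823-86268072 of GRCh37 on the plus strand, carry 3 kinds of short match in capitals, chosen after the sequence was read. The first is TGACTC, the core of the AP-1 element, at -248 from the start. The second is TGACNTCA, the cAMP response element with 1 free base, at -51, and the third is a TATATA run with 3 overlapping matches from -33.

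NTS promoter: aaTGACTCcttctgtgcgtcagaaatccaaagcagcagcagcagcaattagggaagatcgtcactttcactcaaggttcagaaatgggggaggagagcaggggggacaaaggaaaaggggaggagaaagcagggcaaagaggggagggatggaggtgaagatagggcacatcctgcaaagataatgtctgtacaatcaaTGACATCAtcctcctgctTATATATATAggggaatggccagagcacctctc

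Over both strands of the 35116 RefSeq promoter windows of the same length, TGACTC was found in 11.6%, TGACNTCA in 6.87% and TATATA in 3.73%. The full AP-1 consensus TGACTCA (4.20% of windows; it contains TGACTC) and the hypoxia response core ACGTG (18.5% of windows) were not matched in the NTS window. Of these 5 motifs, the NTSR1 window held none and the 2 SORT1 windows held only TGACNTCA, at -236 in the first. The GC content was 49.2% for NTS, 82.0% for NTSR1 and 74.0% and 42.8% for the SORT1 windows, against a median of 58.0% over all windows. These matches are a description of the letters in these windows and say nothing about which factors bind there.

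The libraries held 46613302 to 76860251 reads over genes, and the 10 most abundant genes took between 2.71% and 6.46% of them. All 10 hepatocyte markers listed (such as ALB and HNF4A) were above 3 reads in either or both libraries of every group. All 6 fibroblast markers listed also passed this bar in every Huh7 group, so the bar cannot decide the cell type. The summed level of the hepatocyte markers was lower in resistant cells. It ranged from 10710 to 16251 CPM in Huh7 parental, 22683 to 27762 CPM in Huh7 DMSO, 124 to 492 CPM in Huh7-IR and 1380 to 2810 CPM in Huh7-CR libraries. In Hep3B it ranged from 17152 to 21248 CPM in parental, 30256 to 36145 CPM in DMSO, 3587 to 10347 CPM in IR and 1325 to 2157 CPM in CR libraries.

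NTS was among the most abundant transcripts of untreated cells. In resistant libraries 48.8% to 67.5% of all genes in the table, which include genes with no reads, lay under it. Huh7 parental libraries held 254 and 381 CPM, Huh7 DMSO libraries 1767 and 1042 CPM. Huh7-IR libraries held 1.38 and 0.987 CPM, which were 83 and 46 reads, and Huh7-CR libraries 0.958 and 0.825 CPM, which were 62 and 63 reads. All 4 resistant Huh7 libraries thus lay far under all 4 untreated ones, with no overlap.

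In Hep3B cells, too, the resistant libraries lay under the untreated ones. Parental libraries held 628 and 401 CPM and DMSO libraries 917 and 397 CPM, whereas Hep3B-IR libraries held 3.33 and 4.02 CPM and Hep3B-CR libraries 18.5 and 10.2 CPM. The 4 resistant libraries of this line lay apart from its 4 untreated ones, and the 2 CR libraries lay above the 2 IR libraries.

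As mean and SD of 2 libraries, NTS was 318 ± 89.5 CPM in Huh7 parental cells against 1.18 ± 0.275 CPM in Huh7-IR and 0.891 ± 0.0946 CPM in Huh7-CR cells, a resistant level of 0.372% and 0.281% of the parental one. In Hep3B it was 515 ± 161 CPM in parental cells against 3.68 ± 0.488 CPM in IR and 14.4 ± 5.83 CPM in CR cells, or 0.715% and 2.79% of the parental level. On the log2(CPM + 1) scale, which shrinks the change of a gene that ends near 1 CPM, Huh7-IR and Huh7-CR cells were thus at -7.17 and -7.37, and Hep3B-IR and Hep3B-CR cells at -6.75 and -5.09 (SE 0.39 each). The change was more negative in Huh7 than in Hep3B by 1.35, a description with no test, and this difference was -0.54 with a pseudocount of 4 CPM.

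By rank, NTS stood between the 21st and the 761st most abundant gene in the 4 untreated Huh7 libraries and between the 13139th and the 13439th in the 4 resistant ones. The untreated Hep3B libraries placed it between the 71st and the 390th gene, the resistant ones between the 8525th and the 11880th. Of all genes, 97.1% to 99.9% lay under NTS in untreated libraries and 48.8% to 67.5% in resistant ones. In bulk RNA, fewer cells making a transcript and less of it in each cell cannot be told apart.

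**Figure D1:**
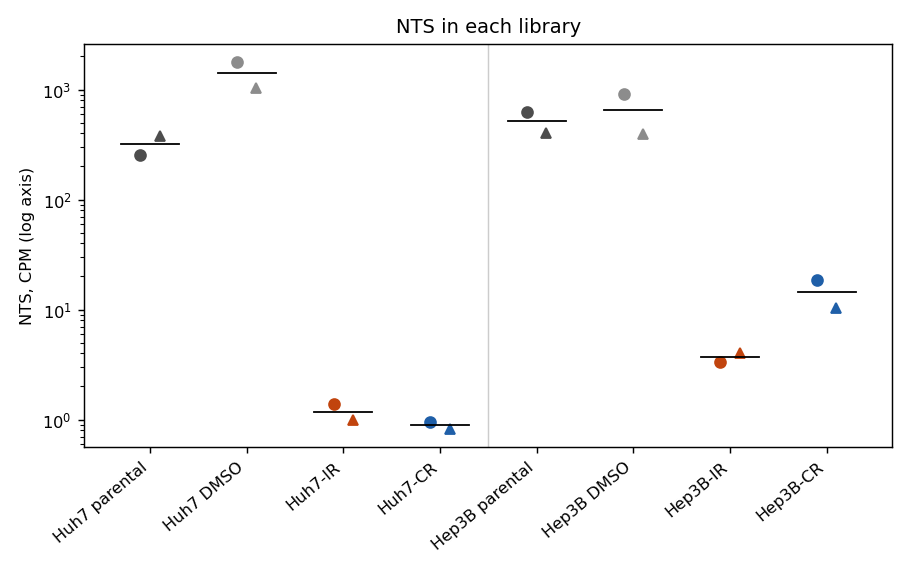
NTS in CPM on a log axis in each of the 16 libraries, with replicate 1 as circles, replicate 2 as triangles and the group mean as a line. The 8 parental and DMSO libraries sit between 254 and 1767 CPM, and the 8 resistant libraries between 0.825 and 18.5 CPM.

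Among the 432 genes called lower in all 4 resistant comparisons, NTS had the lowest mean log2 change, -6.59. The next were AFP, the fetal plasma protein alpha-fetoprotein, at -6.30 and MTTP, the transfer protein that loads lipid onto apolipoprotein B, at -5.09. Both fell further than NTS in Huh7 on the log2(CPM + 1) scale. AFP was at -10.2 and -8.19 and MTTP at -7.85 and -7.75 in IR and CR cells. NTS was at -7.17 and -7.37 in these. The scale shrinks NTS, which ended near 1 CPM, and the order of AFP and NTS in Huh7-CR cells rests on it. AFP went from a mean of 4909 CPM in Huh7 parental to 15.7 CPM in Huh7-CR cells, and NTS from 318 to 0.891 CPM. In Hep3B-IR cells AFP and MTTP fell less than NTS. AFP held 26.4 and 103 CPM there against 268 and 117 CPM in the parental cells. MTTP held 10.7 and 14.1 CPM there against 76.5 and 69.2 CPM. AFP in particular kept a larger part of its parental level there than NTS did, and its call in Hep3B-IR cells was lost without Hep3B parental replicate 1 (-1.14, limma adjusted p = 0.221) or Hep3B-IR replicate 1 (-0.78, limma adjusted p = 0.311).

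The DMSO cells were compared with parental cells to show what moved without Sorafenib. NTS was higher in Huh7 DMSO cells, at 1404 ± 513 CPM, than in Huh7 parental cells, at 318 ± 89.5 CPM, and both DMSO libraries lay above both parental ones. The log2 difference was 2.12 (SE 0.39, adjusted p = 0.0138 by limma over all genes tested), in a comparison where 4.83% of the genes were called (adjusted p under 0.05 and a log2 difference of 0.58 or more in either direction). The call was lost without parental replicate 1 (1.83, limma adjusted p = 0.107) and in a fit of the Huh7 libraries alone (2.12, limma adjusted p = 0.0671), and the adjusted p ranged from 3.03e-05 to 0.107 over the alternatives.

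Hep3B DMSO cells held 657 ± 367 CPM of NTS and overlapped with the parental libraries, one of them lying below both. Their log2 difference was 0.27 (SE 0.39, limma adjusted p = 0.797), with 1.58% of the genes called. The difference between the lines in the DMSO change, 1.85, did not pass the limma test (adjusted p = 0.180), where 0.606% of the genes were called. A DMSO rise of NTS in one line alone was therefore not shown.

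The regimens were compared within each line. In Huh7, NTS did not pass the test between CR and IR cells, with a log2 difference of -0.20 (95% interval from -1.06 to 0.66, limma adjusted p = 0.772) in a comparison that called 13.7% of the genes. In Hep3B, NTS was higher in CR than in IR cells by 1.67 (SE 0.39, limma adjusted p = 0.0170), where 11.7% of the genes were called. This call rested on few libraries. It was lost without Hep3B-IR replicate 1 (1.56, limma adjusted p = 0.0862), without Hep3B-IR replicate 2 (1.77, limma adjusted p = 0.0743), without Hep3B-CR replicate 1 (1.27, limma adjusted p = 0.131) and with a pseudocount of 4 CPM (1.22, limma adjusted p = 0.0532).

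Hepatocyte markers moved with this comparison. Their summed level was higher in Hep3B-IR than in Hep3B-CR libraries, opposite to NTS. Of the 10, 4 were called lower in Hep3B-CR cells, where 11.7% of all genes were called in either direction. In Huh7 the summed level was higher in CR than in IR libraries. Of the 10, 4 were called higher there, where 13.7% of all genes were called in either direction. The part of these markers in the NTS values was not tested.

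The untreated lines held NTS at nearby levels. The log2 difference of Huh7 parental from Hep3B parental cells was -0.69 (95% interval from -1.55 to 0.17, limma adjusted p = 0.169), in a comparison that called 42.6% of the genes. In descending order the group means ran Huh7 DMSO, Hep3B DMSO, Hep3B parental, Huh7 parental, Hep3B-CR, Hep3B-IR, Huh7-IR and Huh7-CR cells. The neighbours Hep3B DMSO and Hep3B parental, Hep3B parental and Huh7 parental, and Huh7-IR and Huh7-CR did not differ beyond their spread by the tests above.

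The G-protein coupled receptors were almost without reads. NTSR1 had 0 reads in 11 of the 16 libraries, including all 8 of Huh7 and both of Hep3B DMSO cells. Hep3B parental libraries held 1 and 1 reads, Hep3B-IR libraries 0 and 2 reads, and Hep3B-CR libraries 2 and 1 reads. A count of 0 allows up to 3 reads, or 0.0390 to 0.0644 CPM at the depth of these libraries, by counting error alone. NTSR1 stayed under the filter (1 CPM in at least 2 libraries) and was not tested, so that no change of it was detectable at this depth.

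NTSR2 had 1 read in all, in Huh7-IR replicate 1, and 0 reads in the other 15 libraries. Neither receptor transcript was therefore measured above its floor in cells with or without NTS. Receptor protein was not measured here.

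SORT1, in contrast, was abundant in every library, with 6237 to 29297 reads. Huh7 parental libraries held 90.8 and 125 CPM and Huh7 DMSO libraries 118 and 122 CPM. Huh7-IR libraries held 185 and 169 CPM and Huh7-CR libraries 164 and 188 CPM, all 4 of them above the 4 untreated libraries. The log2 change was 0.73 in Huh7-IR (SE 0.14, limma adjusted p = 0.00094) and 0.72 in Huh7-CR cells (SE 0.14, limma adjusted p = 0.00173).

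Both were called, in comparisons that called 48.8% and 34.5% of all genes, and 31.1% and 20.9% of them as higher. The median over all genes tested was 0.19 in Huh7-IR and 0.07 in Huh7-CR, and scaling by TMM factors moved the former to 0.04, with SORT1 then at 0.53 and 0.62. Its adjusted p stayed between 0.00036 and 0.0265 over the alternatives, but the change in Huh7-IR fell short of 0.58 by TMM scaling, by edgeR (0.51), by DESeq2 (0.49), against DMSO cells (0.55) and without Huh7 parental replicate 1 (0.50). In Huh7-CR it fell short against DMSO cells (0.54) and without Huh7 parental replicate 1 (0.49).

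In Hep3B the regimens went apart. Parental libraries held 299 and 315 CPM of SORT1 and DMSO libraries 339 and 314 CPM. Hep3B-IR libraries held 392 and 395 CPM, above all untreated ones, and Hep3B-CR libraries 212 and 199 CPM, under all of them. The change in Hep3B-IR cells was 0.36 (95% interval from 0.05 to 0.67, limma adjusted p = 0.0745), and in a fit of the Hep3B libraries alone the same value passed the limma test (adjusted p = 0.0137).

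In Hep3B-CR cells SORT1 fell by 0.576 on the log2 scale (SE 0.14, limma adjusted p = 0.00722), which passed the test but missed the size of 0.58 that a call needs. Without Hep3B parental replicate 2 (-0.54, limma adjusted p = 0.0548) or Hep3B-CR replicate 2 (-0.53, limma adjusted p = 0.0519) it did not pass. It was -0.70 by edgeR, -0.72 by DESeq2 and -0.69 by TMM scaling. The share of all genes called was 27.1% in the Hep3B-IR comparison and 32.2% in that of Hep3B-CR cells.

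Between the regimens SORT1 was lower in Hep3B-CR than in Hep3B-IR cells by a log2 difference of -0.93 (SE 0.14, limma adjusted p = 0.00133), while in Huh7 it was -0.01 (95% interval from -0.32 to 0.30, limma adjusted p = 0.984). The difference between the lines in this contrast was 0.92 (SE 0.20, limma adjusted p = 0.00728), where 25.5% of all genes were called. The change in resistant cells, IR and CR averaged, also differed between the lines, by 0.83 (SE 0.17, limma adjusted p = 0.0036), where 29.4% of genes were called. Parental Huh7 cells held less SORT1 than parental Hep3B cells (log2 difference -1.52, SE 0.14, limma adjusted p = 3.0e-06), and DMSO left it within 0.17 of parental cells in Huh7 (95% interval from -0.13 to 0.48) and 0.09 in Hep3B (95% interval from -0.22 to 0.40).

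In order of mean level, SORT1 ran Hep3B-IR, Hep3B DMSO, Hep3B parental, Hep3B-CR, Huh7-IR, Huh7-CR, Huh7 DMSO and Huh7 parental cells. Of these neighbours, Hep3B-IR and DMSO (0.27, limma adjusted p = 0.158), Hep3B DMSO and parental, Huh7-IR and CR, and Huh7 DMSO and parental did not pass a test of their difference, and Hep3B-CR and Huh7-IR were not compared.

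Per kilobase of exon, the ligand and sortilin changed places. In Huh7 parental cells NTS stood at 256 CPM per kilobase and SORT1 at 15.4. In Huh7-IR cells NTS stood at 0.954 CPM per kilobase and SORT1 at 25.3, and in Huh7-CR cells at 0.719 and 25.2. In Hep3B the levels per kilobase were 415 and 43.9 in parental, 2.97 and 56.3 in IR and 11.6 and 29.4 in CR cells, NTS before SORT1. SORT1 was thus the more abundant of both transcripts per length in every resistant group and the less abundant in every untreated one.

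SORL1 differed between the lines by more than any other gene of the neurotensin lists. Huh7 libraries held 2.82 CPM or less, with 0.0728 and 0.0804 CPM in parental cells. Hep3B parental libraries held 30.8 and 34.7 CPM, DMSO libraries 58.2 and 95.8 CPM, Hep3B-IR libraries 192 and 153 CPM and Hep3B-CR libraries 200.5 and 170 CPM. The resistant Hep3B libraries all lay above the untreated ones.

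Under the increasing regimen SORL1 in Hep3B was 2.35 higher on the log2 scale (limma adjusted p = 0.00146, SE 0.43), and under the constant one 2.46 higher (limma adjusted p = 0.00091, SE 0.43). Against DMSO cells these differences were 1.19 and 1.30. DESeq2 gave 2.31 and 2.36 and did not call them (adjusted p = 0.125 and 0.104). The parental lines differed by -4.97 (SE 0.43, limma adjusted p = 1.6e-06). An annotated antisense gene, SORL1-AS1, overlaps SORL1, and whether the counting used strand was not stated. The remaining 3 genes of the family, SORCS1, SORCS2 and SORCS3, stayed under the filter.

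**Figure D2:**
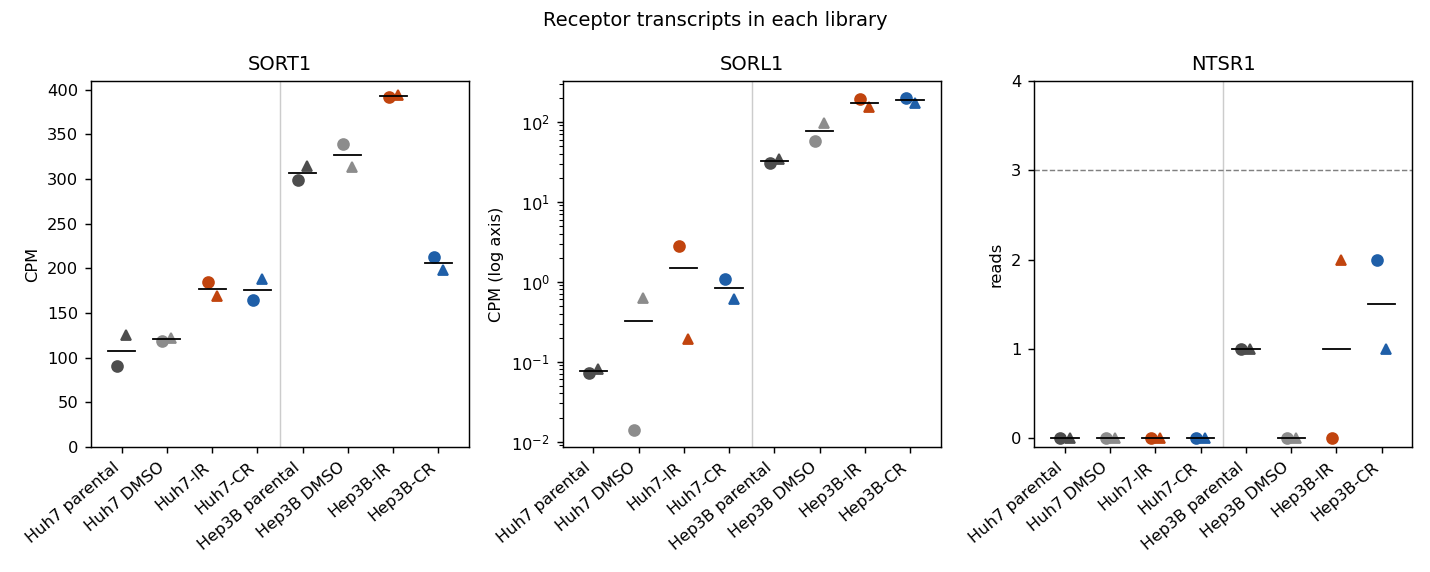
SORT1 in CPM from 0, SORL1 in CPM on a log axis and NTSR1 in reads, in each library, with replicate 1 as circles, replicate 2 as triangles, the group mean as a line and the floor of 3 reads dashed for NTSR1. SORT1 is highest in Hep3B-IR libraries at 392 and 395 CPM, SORL1 is above 30 CPM in Hep3B libraries alone, and no library holds more than 2 reads of NTSR1.

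**Figure D3:**
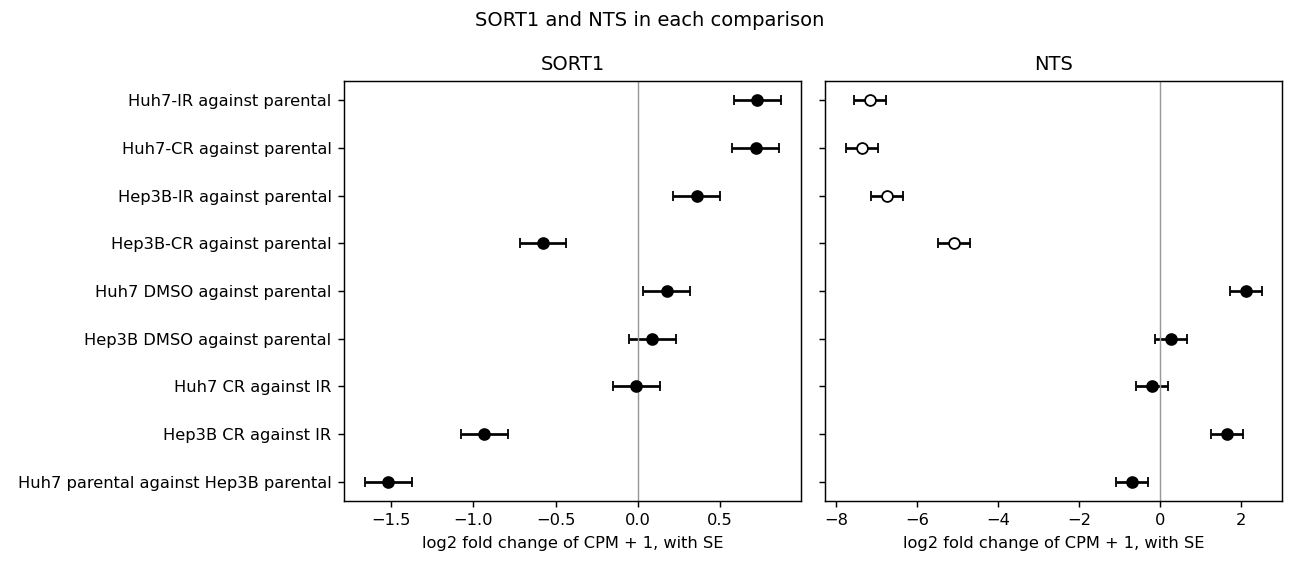
Log2 fold changes of SORT1 (left) and NTS (right) with their SE in each comparison of the fit; filled points were tested and the open points of NTS, which chose the gene, were not. SORT1 ranges from -1.52 to 0.73 and NTS from -7.37 to 2.12.

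The wider pathway was read from 6 lists of 80 genes, of which 61 passed the filter. In Huh7-IR cells 22 of the 61 were called higher and 13 lower, where 31.1% and 17.8% of all genes were called higher and lower. Huh7-CR cells had 16 higher and 9 lower (20.9% and 13.6% of all genes), Hep3B-IR cells 10 and 1 (15.7% and 11.4%), and Hep3B-CR cells 12 and 6 (20% and 12.3%). The median log2 change over the 61 genes was 0.31, 0.18, 0.10 and 0.17 in that order, against 0.19, 0.07, 0.06 and 0.11 over all genes. Fewer list genes than genes overall were lower in Hep3B-IR cells (1 of 61 against 11.4%). These counts are a description, and no test of the lists was made.

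**Figure D4:**
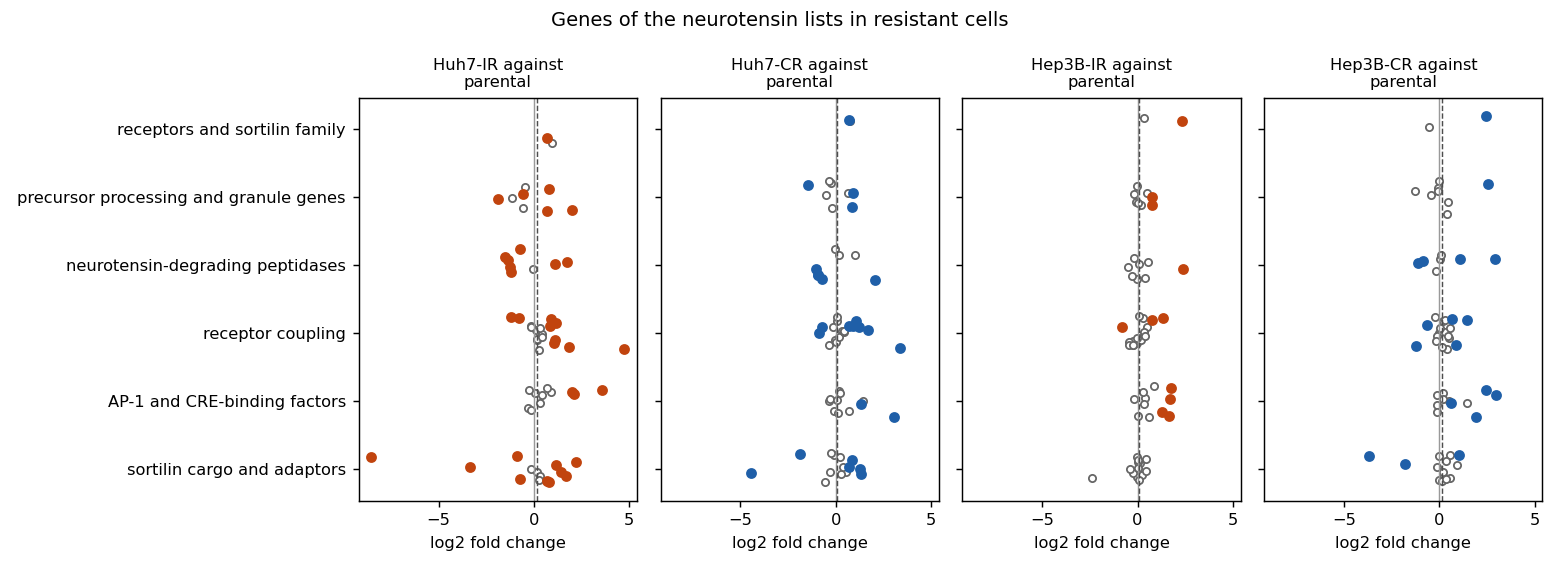
Log2 fold changes of the list genes that passed the filter in the 4 resistant comparisons, 1 row per list, with called genes filled, others open, and the median over all genes as a dashed line. In Huh7-IR the points run from -8.54 (APOB) to 4.75 (PLCB4), and called genes lie on both sides of the median.

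Of the genes that cut and store the precursor, 8 of 17 passed the filter, and PCSK1 and PCSK2, the prohormone convertases of endocrine cells, held at most 1 read in any library. Huh7-IR cells had 3 higher and 2 lower (31.1% and 17.8% of all genes) and Huh7-CR cells 2 and 1 (20.9% and 13.6%). Hep3B-IR cells had 2 and 0 (15.7% and 11.4%) and Hep3B-CR cells 1 and 0 (20% and 12.3%). In Hep3B-IR cells edgeR and DESeq2 also called 0 lower, with 0 at an unadjusted limma p under 0.05 and the same minimum size of 0.58 (as in all such counts that follow), and in Hep3B-CR cells PCSK5 was lower by edgeR and DESeq2 and at an unadjusted limma p under 0.05. SCG5, the chaperone of PCSK2, rose from 0.568 and 0.603 CPM in Huh7 parental to 7.19 and 3.93 CPM in Huh7-IR libraries, and from 1.17 and 1.88 CPM in Hep3B parental to 15.9 and 12.01 CPM in Hep3B-CR libraries. In Huh7-CR (3.59 and 1.01 CPM) its call was lost without replicate 1 (0.34, limma adjusted p = 0.482). CPE, the carboxypeptidase that trims the cut peptides, rose in Huh7-IR (0.70), Huh7-CR (0.89) and Hep3B-IR (0.76), and in Hep3B-CR its change was 0.43 (limma adjusted p = 0.069). The Hep3B-IR call of CPE was lost without Hep3B-IR replicate 2 (0.65, limma adjusted p = 0.0523).

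Of the peptidases that can degrade neurotensin, 8 of 9 passed the filter. Huh7-IR cells had 2 higher and 5 lower (31.1% and 17.8% of all genes) and Huh7-CR cells 1 and 4 (20.9% and 13.6%). Hep3B-IR cells had 1 and 0 (15.7% and 11.4%) and Hep3B-CR cells 2 and 2 (20% and 12.3%). In Hep3B-IR cells edgeR and DESeq2 called 0 lower too, with 0 at an unadjusted limma p under 0.05. ECE1, the endothelin-converting enzyme, rose in all 4, by 1.77, 2.04, 2.36 and 2.92, from 126 and 85.0 CPM in Huh7 parental to 406 and 456 CPM in Huh7-CR, and from 44.5 and 46.6 CPM in Hep3B parental to 399 and 310 CPM in Hep3B-CR libraries. Without Huh7 parental replicate 2 its calls in Huh7-IR (1.49, limma adjusted p = 0.0681) and Huh7-CR (1.76, limma adjusted p = 0.0520) were lost, and without Huh7-IR replicate 2 that in Huh7-IR (0.86, limma adjusted p = 0.0912). PREP, a prolyl endopeptidase, fell in Huh7-IR (-1.21), Huh7-CR (-0.95) and Hep3B-CR (-0.86), and in Hep3B-IR its change was -0.28 (limma adjusted p = 0.14). THOP1, the thimet oligopeptidase, fell in Huh7-IR (-1.33) and Huh7-CR cells (-0.91), while Hep3B-IR and Hep3B-CR cells were at 0.10 and 0.09. The resistant change of THOP1 differed between the lines by -1.21 (limma adjusted p = 0.00845), which did not pass against DMSO cells (-0.81, limma adjusted p = 0.0518). Its Huh7-CR call was lost when Huh7 parental replicate 1 (-0.75) or Huh7-CR replicate 1 (-0.81) was left out.

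Of the genes that couple the receptor to the cell, 18 of 19 passed the filter. Huh7-IR cells had 7 higher and 2 lower (31.1% and 17.8% of all genes) and Huh7-CR cells 6 and 2 (20.9% and 13.6%). Hep3B-IR cells had 2 and 1 (15.7% and 11.4%) and Hep3B-CR cells 3 and 2 (20% and 12.3%). PRKCA, a conventional protein kinase C, rose in all 4, by 0.88, 1.21, 1.32 and 1.47, from 60.9 and 62.2 CPM in Hep3B parental to 129 and 231 CPM in Hep3B-CR libraries. PRKCE, the epsilon isoform, rose by 1.86, 1.73 and 0.89 in Huh7-IR, Huh7-CR and Hep3B-CR, with 0.39 in Hep3B-IR (limma adjusted p = 0.072). PLCB4, a phospholipase C, went from 0.0146 and 0.0268 CPM in Huh7 parental to 45.6 and 15.1 CPM in Huh7-IR and 9.40 and 10.3 CPM in Huh7-CR libraries, and held 0.508 CPM or less in all Hep3B libraries.

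The NTS window above holds the AP-1 core and a cAMP response element with 1 free base, but not the full AP-1 consensus. Binding there was not tested. Of 12 AP-1 and CRE-binding factors, 11 passed the filter. Huh7-IR cells had 3 called higher, where 31.1% of all genes were, and Huh7-CR cells had 2, where 20.9% were, so that the Huh7 counts are near the background. Each resistant Hep3B comparison had 4 (against 15.7% and 20% of all genes). In the 4 resistant comparisons 0 were called lower by limma, edgeR or DESeq2, and 0 were lower at an unadjusted p under 0.05. Of all genes, limma called 17.8% (IR) and 13.6% (CR) lower in Huh7, and 11.4% (IR) and 12.3% (CR) in Hep3B. At these shares few of 11 genes would be lower, and the count of 0 was not tested. FOSL2 rose in all 4, by 3.61, 3.05, 1.72 and 2.45, from 7.78 and 4.35 CPM in Huh7 parental to 74.2 and 92.0 CPM in Huh7-IR libraries. ATF3, a stress-induced factor, rose by 2.03, 1.73 and 2.96 in Huh7-IR, Hep3B-IR and Hep3B-CR, with 1.44 in Huh7-CR (limma adjusted p = 0.051). Its Huh7-IR libraries lay far apart, at 141 and 37.0 CPM, and without the first its call was lost (1.08, limma adjusted p = 0.0843). Its Hep3B-IR call was lost without any 1 of the 4 libraries compared (1.43 to 2.04, limma adjusted p from 0.0508 to 0.175).

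Of the cargo and adaptors of sortilin, 14 of 16 passed the filter. Huh7-IR cells had 6 higher and 4 lower (31.1% and 17.8% of all genes) and Huh7-CR cells 4 and 2 (20.9% and 13.6%). Hep3B-IR cells had 0 and 0 (15.7% and 11.4%) and Hep3B-CR cells 1 and 2 (20% and 12.3%). In Hep3B-IR cells edgeR and DESeq2 also gave 0 and 0, with 0 higher and 1 lower at an unadjusted limma p under 0.05. PSAP, the lysosomal saposin precursor, rose by 1.44, 0.69 and 1.04 in Huh7-IR, Huh7-CR and Hep3B-CR, with 0.43 in Hep3B-IR (limma adjusted p = 0.10), and its Huh7-CR call was lost against DMSO cells (0.33) and when either the second Huh7-CR library (0.65) or parental replicate 2 (0.59) was left out. APOB, the structural protein of liver lipoproteins, fell in the same groups, with log2 changes of -8.54, -4.42 and -3.69, from 1631 and 3853 CPM in Huh7 parental to 2.65 and 11.5 CPM in Huh7-IR libraries, with -2.41 in Hep3B-IR (limma adjusted p = 0.052). Its Hep3B-CR call was lost without Hep3B parental replicate 2 (-3.34, limma adjusted p = 0.0504) or Hep3B-CR replicate 1 (-2.57, limma adjusted p = 0.0716).

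In the comparisons that NTS did not choose, CPD was the highest and PCSK5 the lowest called gene of these lists in Huh7 DMSO cells, at 0.81 and -2.03. APOB (4.12) and PLCB4 (-1.34) stood at the ends in Huh7-CR against Huh7-IR cells, and SCG5 (2.06) and ANPEP (-1.49) in Hep3B-CR against Hep3B-IR cells. Of these 6 changes, that of SCG5 alone kept its adjusted p under 0.05 in every alternative run.

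Markers of other cell types moved in both directions. Many were few in reads, but fibroblast markers in Huh7 were not, with LUM at 277 and 329 CPM in parental libraries. Of 12 enteroendocrine and neuroendocrine markers, between 6 and 8 held at most 3 reads in both libraries of a group, CHGA held 0 reads in all 16, and their summed level ranged from 23.0 to 30.0 CPM in Huh7 parental, 34.4 to 97.7 CPM in Huh7 DMSO, 31.5 to 70.0 CPM in Huh7-IR and 23.4 to 27.7 CPM in Huh7-CR libraries. In Hep3B it ranged from 5.71 to 6.43 CPM in parental, 7.35 to 13.7 CPM in DMSO, 33.0 to 34.9 CPM in IR and 35.6 to 37.2 CPM in CR libraries. ENO2, a neuronal enolase, made up most of this sum in all Hep3B and both Huh7-IR libraries. The same held for Huh7-CR replicate 1 and Huh7 DMSO replicate 2. ENO2 was highest in that untreated DMSO library, at 70.5 CPM, with 67.9 CPM in Huh7-IR replicate 1. It was called higher in Huh7-IR cells. SYP, a vesicle protein, was called lower by limma in both Huh7 comparisons, from 4.80 and 5.38 CPM in parental to 0.829 and 1.46 CPM in IR libraries. In Huh7-CR cells edgeR and DESeq2 did not call SYP. SCGN, a calcium-binding protein, was called lower in Huh7-IR cells.

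Of the 6 fibroblast markers, COL1A1 was called higher in all 4 resistant comparisons, at 11.5 to 66.2 CPM, and COL1A2, COL3A1 and PDGFRB in both Huh7 ones. LUM was called lower in both Huh7 comparisons and PDGFRB in Hep3B-IR cells. The summed fibroblast level ranged from 284 to 337 CPM in Huh7 parental, 313 to 338 CPM in Huh7-IR, 491 to 772 CPM in Huh7-CR, 27.7 to 37.1 CPM in Hep3B parental, 33.2 to 86.8 CPM in Hep3B-IR and 68.6 to 87.0 CPM in Hep3B-CR libraries. Of the 6 leukocyte markers, CD68, a lysosomal protein, rose in all 4, although its Hep3B-CR call was lost without Hep3B-CR replicate 1 (1.55, limma adjusted p = 0.0561) and both Hep3B calls against DMSO cells. PTPRC, the common leukocyte antigen, was called lower in both Huh7 comparisons and CD14 in Huh7-IR cells, and CD3E held at most 4 reads in any library. The 5 endothelial markers summed to 6.35 CPM or less everywhere, and PECAM1 was called lower in both Huh7 comparisons. The part of any of these markers in the NTS and SORT1 values was not tested.

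The genes whose log2(CPM + 1) ran most like NTS over the 16 libraries were TAFA4 (r = 0.984), VSNL1 (0.965), ISX (0.959), NID1 (0.956) and SP8 (0.954). After the mean of each line was subtracted, r stayed between 0.955 and 0.988. By Spearman rho TAFA4, VSNL1, ISX, NID1 and SP8 took places 4, 63, 60, 100 and 174 (rho 0.835 to 0.947), so the order depends on the measure. The points behind each r share lines, treatments and libraries. A gene with a large gap between resistant and untreated cells will thus score high. TAFA4 encodes a small secreted protein, VSNL1 a neuronal calcium sensor, ISX an intestinal homeobox factor, NID1 a basement membrane protein and SP8 a zinc finger factor.

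TAFA4, first by Pearson r over all libraries, held 4.60 and 7.37 CPM in Huh7 parental, 16.4 and 16.6 CPM in Huh7 DMSO, 0.116 and 0.0429 CPM in Huh7-IR and 0.0773 and 0.236 CPM in Huh7-CR libraries. In Hep3B it held 11.1 and 14.3 CPM in parental, 12.2 and 7.64 CPM in DMSO, 0.281 and 0.171 CPM in IR and 1.07 and 1.49 CPM in CR libraries. As TAFA4 was chosen for its likeness to NTS over these libraries, its levels are a description with no test.

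Most like SORT1 were KCTD14 (r = 0.965), PPP1R1C (0.950), MFSD11 (0.950), ZNF607 (0.947) and FRAS1 (0.945). With the mean of each line removed r was between 0.801 and 0.902. By Spearman rho they took places 52, 9, 1, 31 and 9 in that order. KCTD14 held 0.917 and 0.643 CPM in Huh7 parental, 3.70 and 3.05 CPM in Huh7-IR, 6.69 and 7.51 CPM in Hep3B parental, 8.56 and 9.08 CPM in Hep3B-IR and 2.94 and 3.66 CPM in Hep3B-CR libraries. These levels, too, are those of a gene chosen for its likeness and carry no test.

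The nearest protein-coding gene to NTS, RASSF9, lies 37.9 kb from it and was set beside it. In Huh7 it held 2.95 and 3.67 CPM in parental, 14.4 and 10.9 CPM in DMSO, 1.56 and 1.14 CPM in IR and 0.526 and 0.602 CPM in CR libraries. This is the same order of parental, DMSO and resistant cells as that of NTS, over a smaller range. The log2 change was -0.88 in Huh7-IR (limma adjusted p = 0.0054), -1.46 in Huh7-CR (limma adjusted p = 0.00031) and 1.66 in Huh7 DMSO cells (limma adjusted p = 0.0028).

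In Hep3B RASSF9 held 16.4 and 13.5 CPM in parental, 22.5 and 19.8 CPM in DMSO, 20.0 and 14.8 CPM in IR and 8.30 and 11.7 CPM in CR libraries. Against parental cells it was at 0.20 under the increasing regimen (limma adjusted p = 0.562) and at -0.55 under the constant one (limma adjusted p = 0.0719). The resistant change differed between the lines by -0.99 (limma adjusted p = 0.0169), which did not pass without Huh7 parental replicate 2 (-0.87, limma adjusted p = 0.0808), without Hep3B parental replicate 2 (-0.86, limma adjusted p = 0.0808) or with a pseudocount of 4 CPM (-0.42, limma adjusted p = 0.143). In Hep3B-IR cells, then, NTS was at 0.715% of its parental level while its neighbour overlapped with the parental libraries.

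On the other side of NTS, MGAT4C, at 72.7 kb, rose in Huh7 from 1.48 and 1.41 CPM in parental to 10.1 and 5.79 CPM in IR (1.83, limma adjusted p = 6.5e-05) and 5.44 and 3.69 CPM in CR libraries (1.17, limma adjusted p = 0.0026), and held at most 0.156 CPM in Hep3B. ALX1, the next gene beyond RASSF9, passed no test in the 9 comparisons, and C12orf50 stayed under the filter. Beside SORT1, PSRC1, a spindle protein gene, fell in all 4 resistant comparisons (-1.07, -0.97, -1.32 and -1.70), and PSMA5, a proteasome subunit 1.1 kb away, was called in none. MYBPHL, 2.56 kb away on the other side, held 1.78 CPM or less throughout, and SYPL2 fell in both Hep3B comparisons (-1.51 each). Around NTSR1, SLCO4A1 and GATA5 stayed under the filter, OGFR was called in no comparison, and MRGBP fell by 0.62 in Hep3B-IR cells, a call lost without Hep3B parental replicate 2 (-0.47) or Hep3B-IR replicate 1 (-0.54).

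**Figure D5:**
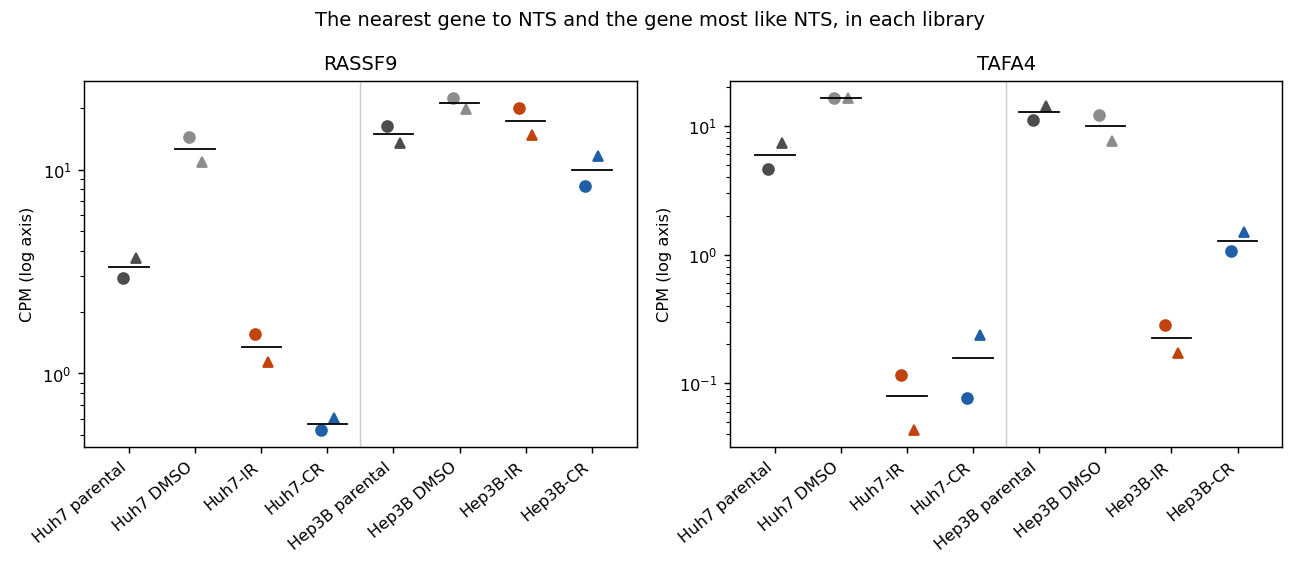
RASSF9, the nearest protein-coding gene to NTS, and TAFA4, the gene most like it by Pearson r over the libraries, in CPM on log axes, with replicate 1 as circles, replicate 2 as triangles and the group mean as a line. RASSF9 is between 8.30 and 22.5 CPM in all Hep3B libraries, whereas TAFA4 is at 1.49 CPM or less in all resistant libraries.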

How the data were processed

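Poly(A) RNA libraries from 16 samples (2 in each of 8 groups) were analysed from the CPM table that the authors deposited. Per the study's methods and the submitters' processing notes, the authors aligned reads to hg19 with STAR, keeping unique hits, and counted them over RefSeq exons with QuasR; reads shared with near-identical copies were thus dropped. The labels name another sequencer and kit than the methods, and the methods state triplicates where 2 libraries per group are used here. CPM was the count over the library total. All values (100%) came out as whole reads to within 0.05 reads, so edgeR 4.0.16 and DESeq2 1.42.0 were also run on the recovered reads as alternatives. The authors' own test was edgeR on counts.

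The main test was limma 3.58.1 (R 4.3.3) on log2(CPM + 1) with a mean-variance trend, in 1 fit of 8 groups over 15019 genes with 1 CPM in at least 2 libraries, two-sided with Benjamini-Hochberg adjustment. A called gene had an adjusted p under 0.05 and a log2 change of 0.58 or more either way. All p-values and intervals (95%) are from limma unless another tool is named. The members and gene lists were chosen with earlier results of these data known. Genes were named by rule: the members, NTSR2 and SORL1, up to 2 genes per list and direction called alike in 3 of 4 resistant comparisons, the ends of the other comparisons, the 5 genes most alike by Pearson r, and the 2 nearest protein-coding genes on each side; THOP1, PCSK1, PCSK2, CHGA, CD3E and the other markers given beside NTS were added after their values were seen. A gene that the rule names is not reported here. Symbols matched 26111 of 26258 Entrez IDs. Gene models are GENCODE on GRCh37, and promoters are RefSeq sequences matched to GRCh37. The fit was checked on counts simulated from a common profile, with known changes in a small part of the genes. That check covers the code and does not bear on the spread of these data. All sample columns were used. Intervals and floors cover counting error only.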

Additional observations from a re-analysis of the deposited data

Results flagged for a closer look

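The effects below differed between the lines by a test of the difference itself, with all p-values from limma interaction terms.

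The change of SORT1 in resistant cells was higher in Huh7 than in Hep3B cells by 0.83 on the log2 scale (adjusted p = 0.0036). All 4 resistant Huh7 libraries lay above the 4 untreated ones, whereas in Hep3B the IR libraries lay above and the CR libraries below them. In the contrast of CR with IR cells, the lines differed by 0.92 for SORT1 (adjusted p = 0.00728), and the Hep3B contrast of -0.93 carried it.

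For NTS the contrast of CR with IR cells differed between the lines by -1.87 (adjusted p = 0.0290), with 1.67 in Hep3B and -0.20 in Huh7. It did not pass in 6 of the 8 fits that left out 1 of the IR or CR libraries. The change of SORL1 in resistant cells differed by -1.53 (adjusted p = 0.0449). Huh7 levels of SORL1 were 2.82 CPM or less, and the sign of this difference turned with edgeR (1.35) and DESeq2 (1.38), which work on ratios with no pseudocount of 1 CPM.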

How the results depend on the processing

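The fall of NTS in resistant cells kept its direction in every alternative, while its size followed the pseudocount. In Huh7-IR it was -8.27 by edgeR, -8.29 by DESeq2, -7.78 with a pseudocount of 0.25 CPM, -5.93 with 4 CPM and -9.29 against DMSO cells. In Huh7-CR these were -8.59, -8.58, -8.10, -6.01 and -9.49, and in Hep3B-IR the pseudocount of 4 CPM gave -6.04. The line difference in this fall was -2.20, -2.19, -1.85, -0.54 and -3.20 in that order. With the libraries of 1 line fitted alone, NTS in Huh7 DMSO cells (2.12) missed the threshold and SORT1 in Hep3B-IR cells (0.36) passed it. NTS in Hep3B-CR against IR cells was 1.22 with a pseudocount of 4 CPM, and its line difference was -1.30 there and -1.87 with no filter, short of the threshold each time.

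Leaving out 1 library at a time, NTS ranged from 1.74 to 2.50 in Huh7 DMSO cells, from 1.27 to 2.06 in Hep3B-CR against IR cells and from -2.26 to -1.47 in its line difference, and SORT1 in Hep3B-CR cells from -0.62 to -0.53. The count of called list genes ranged from 16 to 23 in Huh7-CR (25 with all libraries) and from 5 to 9 in Hep3B-IR cells (11 with all libraries). Against DMSO cells, PCSK5 (1.85) and GNA14 (0.23) turned positive in Huh7-CR, and the SORL1 line difference turned positive with edgeR (1.35) and DESeq2 (1.38).

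Over all genes, the 726 calls in Huh7 DMSO cells became 1833 with DESeq2, 382 with no filter, 29 with the Huh7 libraries alone, 3564 without DMSO replicate 1 and 148 without DMSO replicate 2. The 237 calls in Hep3B DMSO cells became 544 with DESeq2, 77 with edgeR and 516 with the Hep3B libraries alone, and the 2051 in Huh7-CR against IR cells became 194 with the Huh7 libraries alone. The cause was not tested.

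The labels number the libraries of each group 1 and 2. Deviations of same-numbered libraries correlated above 0.1 in 5 of 9 comparisons (0.21 to 0.44) and down to -0.22 in the others, so a pairing was not shown in every comparison and the fit without it was kept. With the replicate number as a block, NTS and SORT1 kept their values and their side of the threshold in each comparison (for SORT1 adjusted p = 0.00124 in Huh7-IR and 0.0084 in Hep3B-CR cells), and the SORL1 line difference missed the threshold (adjusted p = 0.0532). A crossed pairing, chosen after seeing the data, gave 5984 calls in Huh7-IR cells against 5122 with the block and 5893 without, in fits of those groups alone. With 2 libraries per group, transcripts at 0 to 2 reads, such as NTSR1, could not be compared, and small changes of SORT1 are limited by the spread between libraries.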

Other observations

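Of 43 other peptide hormone precursors listed, 14 passed the filter. Huh7-IR cells had 3 called higher and 6 lower (31.1% and 17.8% of all genes) and Huh7-CR cells 4 and 4 (20.9% and 13.6%), while Hep3B-IR cells had 2 and 1 (15.7% and 11.4%) and Hep3B-CR cells 1 and 3 (20% and 12.3%). ADM2, the adrenomedullin 2 precursor, rose in all 4 resistant comparisons, from 4.90 and 3.47 CPM in Huh7 parental to 43.2 and 33.9 CPM in Huh7-IR libraries and from 7.71 and 6.92 CPM in Hep3B parental to 54.1 and 57.8 CPM in Hep3B-CR libraries. In Huh7-CR its change shrank from 2.06 to 0.60 against DMSO cells, and its Hep3B-IR call was lost without Hep3B-IR replicate 1 (1.72, limma adjusted p = 0.0523).

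KNG1, the plasma kininogen from which bradykinin is cut, fell in all 4, from 7.68 and 22.5 CPM in Huh7 parental to 0.0332 and 0.0429 CPM in Huh7-IR libraries and from 15.9 and 36.2 CPM in Hep3B parental to 0.808 and 0.914 CPM in Hep3B-CR libraries. Its Hep3B-IR call was lost without Hep3B parental replicate 2 (-1.92) or Hep3B-IR replicate 1 (-1.82). Its Huh7 DMSO libraries held 40.6 and 104 CPM, above both parental ones (log2 difference 2.21, limma adjusted p = 0.0425), as those of NTS did, but the test did not pass without Huh7 parental replicate 1 or Huh7 DMSO replicate 2 (limma adjusted p = 0.240 and 0.367). NMB, the neuromedin B precursor, fell in Huh7-IR, Huh7-CR and Hep3B-CR (-1.55, -1.49 and -1.29), with -0.21 in Hep3B-IR (limma adjusted p = 0.49).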
